A study of Mus musculus with 6 samples.

Results

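The genes described here are 10 cytokine and receptor genes of the interleukin-1 (IL-1), tumor necrosis factor (TNF) and colony-stimulating factor (CSF) families: Il1a, Il1b, Il1rn, Il1r1, Il18, Tnf, Tnfrsf1a, Tnfrsf1b, Csf1 and Csf2. They were chosen by name, with earlier results of these data known, and all 10 were found among the 41388 genes of the expression table. RNA was sequenced from primary hepatocytes of C57BL/6J mice, freed from the liver by collagenase, rested overnight and then given adenovirus for 24 h at about 1000000 viral particles per 1000000 cells. In the control group the virus encoded β galactosidase (β-gal, replicates 1, 2 and 3), and in the other group it encoded ALOXE3 (Aloxe3, replicates 7, 8 and 9), the epidermal-type lipoxygenase eLOX3 (n = 3 libraries per group). Both groups therefore carried virus, and no culture without virus was analysed here. The sources do not say whether the 3 libraries of a group came from separate mice or cultures, so the p-values below measure only the spread between these libraries, which may be technical. Inflammatory signaling is one of the processes that the study examined in these cells.

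IL-1α and IL-1β are agonists of the same receptor, Il1r1, which signals together with the accessory chain Il1rap through Myd88 and the Irak kinases to NF-κB. Il1rn encodes the receptor antagonist, which occupies Il1r1 without signaling, and IL-18 is a related cytokine that, like IL-1β, is made as a precursor and cut by caspase-1. TNF acts through Tnfrsf1a, present on most cells and able to signal to NF-κB or cell death, and through Tnfrsf1b, which lacks a death domain. CSF1 maintains macrophages, and CSF2 (GM-CSF) acts on myeloid cells. In the liver, Kupffer cells are the classical source of IL-1 and TNF, and hepatocytes are known to respond to both with acute phase proteins.

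The ligand genes Il1a, Il1b and Tnf share a TATA box just ahead of the transcription start. The 100 bases before the RefSeq start of each (GRCm38.p6, minus strand, written 5′ to 3′) are shown because these letters were found there and in no window of the other 7 members, with TATAAA in capitals and, in Il1a only, an AP-1 motif (TGANTCA) in capitals as well.
Il1a (chr2:129309973-129310072): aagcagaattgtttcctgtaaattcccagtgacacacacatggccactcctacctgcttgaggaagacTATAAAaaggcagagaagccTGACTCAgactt
Il1b (chr2:129371140-129371239): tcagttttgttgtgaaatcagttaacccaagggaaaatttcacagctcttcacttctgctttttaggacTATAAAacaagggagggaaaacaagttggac
Tnf (chr17:35202008-35202107): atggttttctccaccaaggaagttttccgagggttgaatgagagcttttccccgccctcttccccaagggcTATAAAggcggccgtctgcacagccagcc
The TATAAA begins at position -32 in Il1a, -31 in Il1b and -29 in Tnf, counted back from the start. All 10 members matched a RefSeq window, 13 windows in all because Il1r1 and Il1rn have more than one start, and TATAAA on the forward strand was present in 3 of the 13 windows of 250 bases before the start, against 7.59% of all 32851 such windows. TGANTCA on either strand was found ahead of Il1a and Il1rn (6.75% of all windows), TTGCNNAA, a C/EBP motif, ahead of Il1r1 and Csf2 (9.56%), and the NF-kB consensus ahead of Il1r1 and Csf1 (3.9%). A match is a description of the letters and not a site of binding.

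The library size used by the authors for scaling, recovered from the steps of the values, was between 29575553 and 32431318 reads with β-gal and between 25521908 and 30399198 reads with Aloxe3. Aloxe3 itself was at 1.74 to 2.06 RPKM (reads scaled to gene length and library size) in the β-gal libraries and at 42.3 to 56.3 RPKM in those labelled Aloxe3. Aloxe3 replicate 9 stood apart: the chi-square of its reads against those of replicates 7 and 8, divided by the degrees of freedom, was 8.99 and 9.82, where the other within-group pairs gave 3.47 to 5.46. Hepatocyte identity was checked on 9 markers, of which Alb was at 4362 RPKM or more and Apob at 232 RPKM or more in every library, while Asgr1 (1.46 to 2.27 RPKM) and Cps1 (0.915 to 1.64 RPKM) were low and Tat was below the testing minimum. Of the 8 tested markers, 4 had a log2 fold change above 0 and 4 below. Ttr alone passed the threshold, which 0.394% of all tested genes did, and fell by 0.30 on the log2 scale (adjusted p = 0.045, limma), while voom, with 1.37% of all tested genes called, called Ttr and Cps1 (2 of the 8), the one lower and the other higher. The groups did not overlap for 4 of them, against 19.9% of all tested genes. Beside Ttr these were Serpina1a and Apoa1, with log2 fold changes of -0.11 and -0.10 (adjusted p = 0.262 and 0.349, limma), and Cps1, with 0.33 (adjusted p = 0.161).

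Markers of other liver cells ranged from absent to abundant. Of 14 Kupffer cell and macrophage markers, 10 had a mean of at least 0.5 RPKM. Cd68 (129 to 149 RPKM) and Cd14 (69.9 to 81.2 RPKM) were the highest, and Clec4f, Timd4 and Vsig4, which mark resident Kupffer cells, stayed at or below 0.102 RPKM. Marco and Cd5l of the same list were higher, at 0.705 to 1.18 and 0.355 to 1.16 RPKM, and were tested. The summed level of the 14 was 238 to 245 RPKM with β-gal and 218 to 231 RPKM with Aloxe3, with no overlap. This gap was that of Cd68 (147 to 149 and 129 to 141 RPKM), since the other 13 markers summed to 89.4 to 98.3 and 89.7 to 91.4 RPKM, which overlapped, and none of the 10 tested markers passed the threshold (Cd68 had the smallest p, adjusted p = 0.262, limma). General leukocyte markers (Laptm5, Coro1a, Ptprc) summed to 2 to 2.32 and 1.77 to 2.05 RPKM, endothelial markers led by Cdh5 and Pecam1 to 26 to 30.1 and 25.9 to 30 RPKM, and stellate markers led by Col1a1 and Dcn to 3.48 to 4.02 and 3.6 to 3.99 RPKM, with Lrat at 0 in all libraries. Cholangiocyte markers, led by Spp1 and Sox9, summed to 1509 to 1593 and 1577 to 1716 RPKM. Most of this sum was Spp1, at 1431 to 1638 RPKM. Sox9 and Krt19 were at 38.3 to 49.3 and 32.9 to 51 RPKM, and Krt7 and Epcam stayed at or below 0.163 and 0.456 RPKM. Neutrophil markers (led by S100a8 and S100a9), T and NK cell markers (led by Trac and Cd3e, with Nkg7, Cd3d and Gzma at 0) and B cell markers (led by Cd79a and Cd79b, with Ms4a1 at 0) were near 0. They summed to 0.0888 to 0.328 RPKM in controls and 0.0108 to 0.1 RPKM with Aloxe3 for neutrophils, to 0.0747 to 0.0933 and 0.0797 to 0.379 RPKM for T and NK cells, and to 0.07 to 0.0859 and 0.131 to 0.159 RPKM for B cells. The part of these cells in the values below was not tested, and in bulk RNA more cells of a type and more RNA per cell cannot be told apart.

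To ask whether forced Aloxe3 expression changed these cytokine and receptor genes, the 2 groups were compared gene by gene. None of the 10 members passed an adjusted p of 0.05 (limma on log2(RPKM + 1), Benjamini-Hochberg over 12693 genes, of which 0.394% passed, 0.355% higher and 0.0394% lower with Aloxe3). Voom, run in limma on reads derived from the RPKM values, likewise called 0 of the 10, against 1.37% of all genes. Of the members, 8 had a higher mean with Aloxe3, and Il18 and Tnfrsf1b had a lower one, where 52.4% of all tested genes had a log2 fold change above 0. Before adjustment, 5 of the 10 had p under 0.05, against 12.7% of all tested genes. These were Il1a, Il1r1, Csf1 and Csf2 with higher values (7.31% of all tested genes) and Il18 with lower ones (5.42%). The 2 groups did not overlap for 5 members, Il1a, Il1b, Il1r1 and Csf2 with all Aloxe3 libraries above and Tnfrsf1b with all below, against 19.9% of all tested genes (11.2% above and 8.71% below). As the members were chosen with earlier results of these data known, these shares are a description and no independent test. The median log2 fold change over the members was 0.13, and 0.0049 over all tested genes. All members had a mean of at least 0.5 RPKM in the 6 libraries, the minimum for testing, so none was left out.

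**Figure D1:**
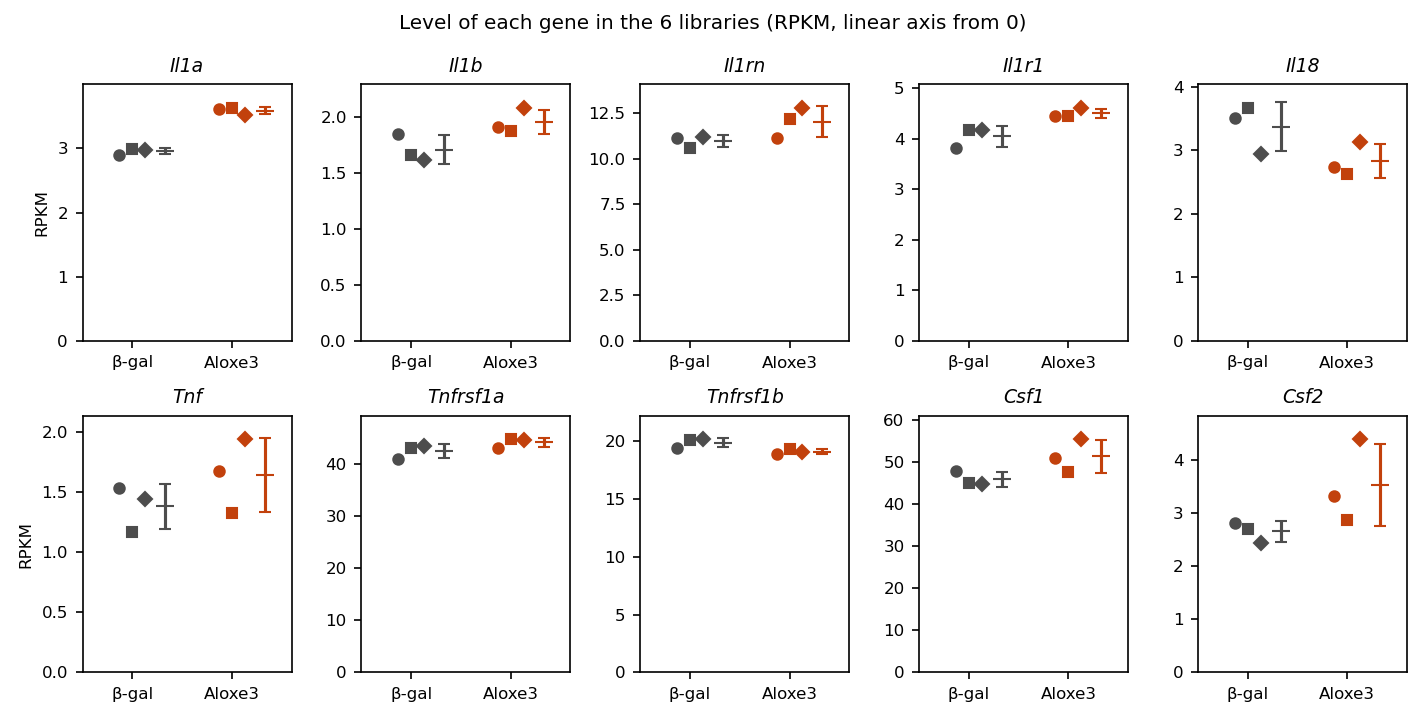
RPKM of each of the 10 genes (linear axes from 0) in the β-gal libraries (grey; circle, square and diamond for replicates 1, 2 and 3) and the Aloxe3 libraries (orange; replicates 7, 8 and 9), with the mean and SD of each group (n = 3) to the right of its points. The groups are apart for Il1a, Il1b, Il1r1, Csf2 and Tnfrsf1b, and the diamond of Aloxe3 replicate 9 is the highest point in 6 of the panels.

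Among the IL-1 ligands, Il1a, the precursor of IL-1α (chromosome 2, 129299610 to 129309972, GRCm38), was at 2.9, 2.98 and 2.98 RPKM in the β-gal libraries and at 3.61, 3.63 and 3.53 RPKM in the Aloxe3 libraries. Every Aloxe3 library lay above every β-gal library. The control mean was 2.96 ± 0.045 RPKM and the Aloxe3 mean 3.59 ± 0.056 RPKM (SD, n = 3 each), a ratio of 1.21. The log2 fold change was 0.21 (SE 0.043, 95% interval 0.11 to 0.31, adjusted p = 0.126 from limma), and this was the smallest p of the 10 members, at rank 121 of the tested genes. The gene held only 174 to 218 reads per library, for which counting alone gives an SD of 7.27% of the mean, while the SD between replicates was 1.51% with β-gal and 1.57% with Aloxe3. The replicates of Il1a thus lay closer together than counting error. Its limma SE is larger than these replicates alone would give, because eBayes draws it towards the spread of other genes. With voom on the derived reads the log2 fold change was 0.28 with an adjusted p of 0.183. An exact permutation test gave p = 0.1 (two-sided), the smallest that 3 libraries against 3 allow, for Il1a and for each of the other 4 genes whose groups did not overlap.

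Il1b, the second agonist (chromosome 2, 129364570 to 129371139), was at 1.85, 1.67 and 1.61 RPKM with β-gal and at 1.91, 1.88 and 2.08 RPKM with Aloxe3. The 2 groups were apart by a narrow margin, since β-gal replicate 1 and Aloxe3 replicate 8 differed little. The log2 fold change was 0.13 (SE 0.06, 95% interval -0.01 to 0.27, adjusted p = 0.429, limma). It was 0.08 with quantile normalization and 0.19 with voom. Il18 (chromosome 9, 50554827 to 50581840) was at 3.52, 3.67 and 2.94 RPKM with β-gal and at 2.74, 2.63 and 3.13 RPKM with Aloxe3. It was the one ligand with a lower mean in Aloxe3-overexpressing cells, and its groups overlapped, as Aloxe3 replicate 9 lay above β-gal replicate 3. The log2 fold change was -0.19 (SE 0.08, 95% interval -0.38 to -0.0028, adjusted p = 0.39, limma), on a minimum of 50 to 85 reads per library.

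Il1rn, the receptor antagonist (chromosome 2, 24336853 to 24351494), was the highest of the IL-1 genes among the members on the RPKM scale, at 11.1, 10.6 and 11.2 RPKM with β-gal and 11.1, 12.2 and 12.8 RPKM with Aloxe3. Aloxe3 replicate 7 lay within the β-gal range and the other 2 above it (log2 fold change 0.12, SE 0.054, 95% interval -0.0079 to 0.24, adjusted p = 0.419, limma). Within a library, the level of Il1rn was 3.55 to 3.83 times that of Il1a with β-gal and 3.07 to 3.63 times with Aloxe3. Relative to Il1b it was 6 to 6.95 times and 5.81 to 6.47 times, so that the antagonist transcript exceeded either agonist transcript in every library and both ratios overlapped between the groups.

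Il1r1, the signaling receptor (chromosome 1, 40225080 to 40317257), was at 3.81, 4.17 and 4.17 RPKM with β-gal and 4.46, 4.44 and 4.61 RPKM with Aloxe3, with no overlap. Its log2 fold change was 0.12 (SE 0.047, 95% interval 0.014 to 0.23, adjusted p = 0.343, limma). Its partner chain Il1rap was at 3.23 to 3.4 RPKM in controls and 3.23 to 3.41 RPKM with Aloxe3, so the level of Il1r1 per Il1rap was 1.18 to 1.23 and 1.3 to 1.41 in the 2 groups.

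**Figure D2:**
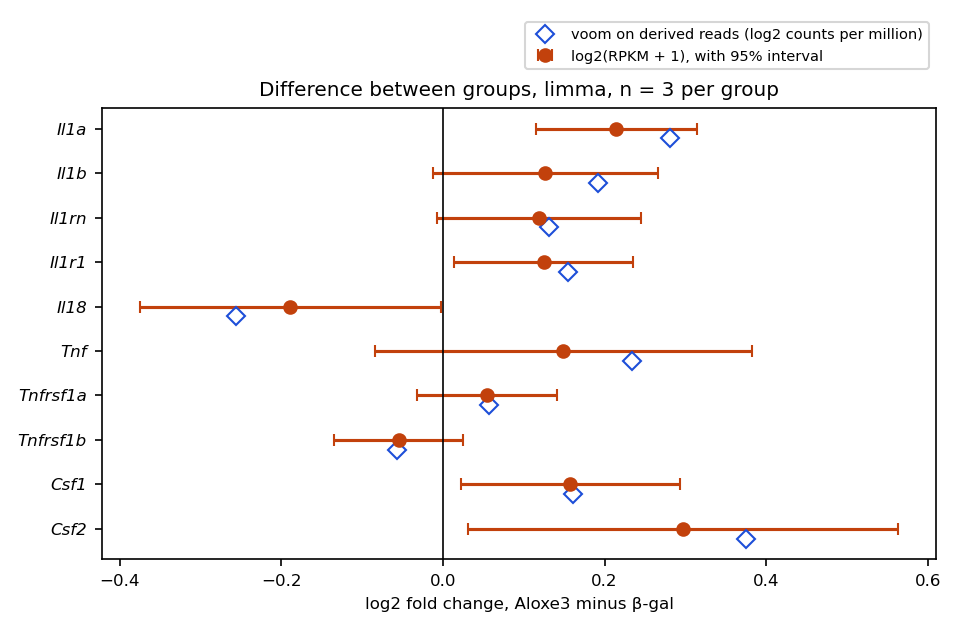
Log2 fold change of each gene, Aloxe3 minus β-gal (x axis), from limma on log2(RPKM + 1) with its 95% interval (filled circles) and from voom on derived reads (open diamonds, log2 of scaled reads; n = 3 per group). The intervals of Il1a, Il1r1, Csf1 and Csf2 lie above 0 and that of Il18 below 0 before adjustment, and the diamond lies farther from 0 than the circle for all 10 genes, most visibly for Il1a, Il1b, Il18, Tnf and Csf2.

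Tnf, the ligand (chromosome 17, 35199381 to 35202007), had the lowest level of the 10 genes, at 1.53, 1.17 and 1.44 RPKM with β-gal and 1.67, 1.32 and 1.94 RPKM with Aloxe3. The groups overlapped, and Aloxe3 replicate 8 was lower than 2 of the 3 β-gal libraries. The log2 fold change was 0.15 (SE 0.1, 95% interval -0.08 to 0.38, adjusted p = 0.572, limma), on 62 to 84 reads per library. Leaving out Aloxe3 replicate 9 gave 0.07, leaving out replicate 8 gave 0.24, and leaving out β-gal replicate 2 gave 0.08. On the log2(RPKM + 0.1) scale it was 0.23, as with voom. The spread between libraries (13.8% of the mean with β-gal and 18.7% with Aloxe3) was above the counting error, and the interval holds both a small decrease and an increase.

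The TNF receptors were far better sampled, with 1843 to 3629 reads per library. Tnfrsf1a (chromosome 6, 125349362 to 125362484) was at 41.1, 43.2 and 43.5 RPKM with β-gal and 43.2, 44.8 and 44.7 RPKM with Aloxe3. Aloxe3 replicate 7 lay within the β-gal range (log2 fold change 0.054, SE 0.037, 95% interval -0.03 to 0.14, adjusted p = 0.576, limma), and the value was 0.029 without β-gal replicate 1. Tnfrsf1b (chromosome 4, 145213463 to 145246870) was at 19.4, 20.1 and 20.2 RPKM with β-gal and 18.9, 19.4 and 19.1 RPKM with Aloxe3. All Aloxe3 values of Tnfrsf1b were lower, by a narrow margin between β-gal replicate 1 and Aloxe3 replicate 8 (log2 fold change -0.055, SE 0.034, 95% interval -0.13 to 0.025, adjusted p = 0.542, limma). The level of Tnfrsf1a per Tnfrsf1b was 2.11 to 2.15 with β-gal and 2.28 to 2.34 with Aloxe3. How often such a ratio separates the groups over all pairs of genes was not counted. Relative to Tnf, the level of Tnfrsf1a was 26.8 to 37 times with β-gal and 23.1 to 33.8 times with Aloxe3.

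Csf1 (chromosome 3, 107741048 to 107760469), the macrophage growth factor, had the highest level of the 10 genes, at 48, 45 and 44.7 RPKM with β-gal and 51, 47.7 and 55.4 RPKM with Aloxe3, on a minimum of 6846 to 8142 reads per library. Aloxe3 replicate 8 lay within the β-gal range and replicates 7 and 9 above it. The log2 fold change was 0.16 (SE 0.058, 95% interval 0.023 to 0.29, adjusted p = 0.333, limma), and 0.1 without Aloxe3 replicate 9. Csf2 (chromosome 11, 54247271 to 54249667), which encodes GM-CSF, was at 2.83, 2.7 and 2.45 RPKM with β-gal and 3.33, 2.88 and 4.4 RPKM with Aloxe3. Its groups did not overlap, but the Aloxe3 libraries were spread over a wide range, with replicate 8 close to β-gal replicate 1 and replicate 9 far above. The log2 fold change of Csf2 was the farthest from 0 among the members at 0.3 (SE 0.11, 95% interval 0.031 to 0.56, adjusted p = 0.348, limma), and it was 0.16 without Aloxe3 replicate 9. Il1rn moved likewise, to 0.076 without that library. Replicate 9 held the highest value of the 6 libraries for 6 members, Il1b, Il1rn, Il1r1, Tnf, Csf1 and Csf2. How often it was highest over all tested genes was not counted.

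**Figure D3:**
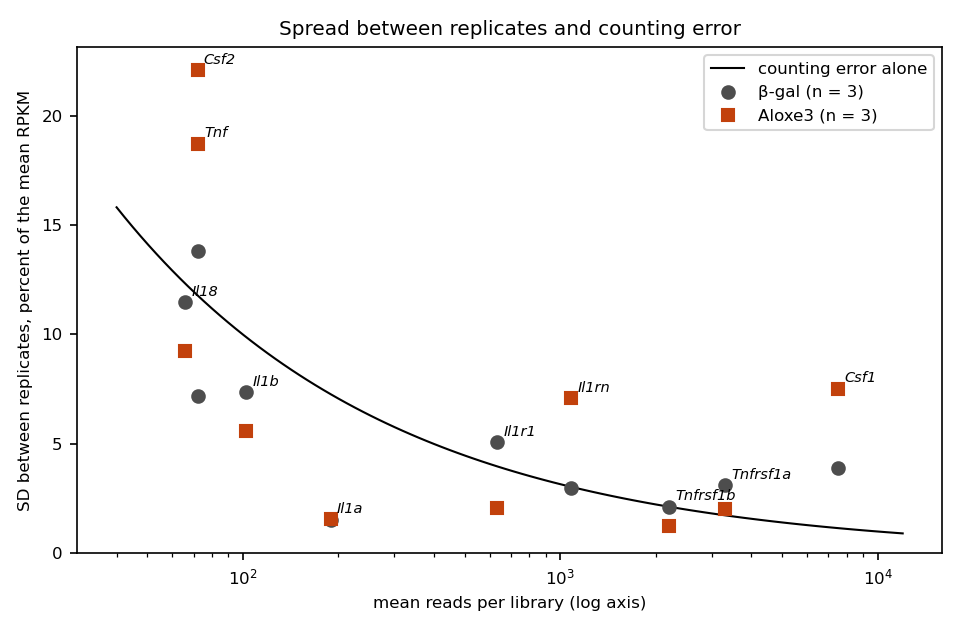
SD between the 3 replicates of a group as a percent of the mean RPKM (y axis) against the mean reads per library (log x axis) for each of the 10 genes (for Il1rn, Il1r1, Il18 and Csf1 the reads are a minimum), with the line that counting error alone gives. The spread of Csf2 and Tnf in the Aloxe3 group (22.1% and 18.7%) lies above the line, and both spreads of Il1a lie below it.

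Counting error was 11.8% of the mean for Csf2 and Tnf and at most 1.16% for Csf1. The spread between replicates was below the counting error for 6 members with β-gal and for 5 with Aloxe3. For Il1rn, Il1r1, Il18 and Csf1 the reads are a minimum, and their counting error an upper limit, because their gene length was inferred. Among the other 6 members the spread was below the counting error for 4 with β-gal and for 3 with Aloxe3. In the β-gal libraries the levels, which are per length, ran from Csf1 through Tnfrsf1a, Tnfrsf1b, Il1rn, Il1r1, Il18, Il1a, Csf2 and Il1b down to Tnf. Neighbours in this order did not overlap between libraries except for Il18 and Il1a. In the Aloxe3 libraries Il1a and Csf2 stood above Il18, and the ranges of Il1a and Csf2, of Csf2 and Il18, and of Il1b and Tnf overlapped. The TNF receptors and Csf1 were among the more abundant transcripts of these cells, with Csf1 at percentile 91.3 and Tnfrsf1a at percentile 90.1 and Tnfrsf1b at percentile 76 of the tested genes, and the agonist ligands among the less abundant ones, with Il1b at percentile 22.6 and Tnf at percentile 19.5.

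**Figure D4:**
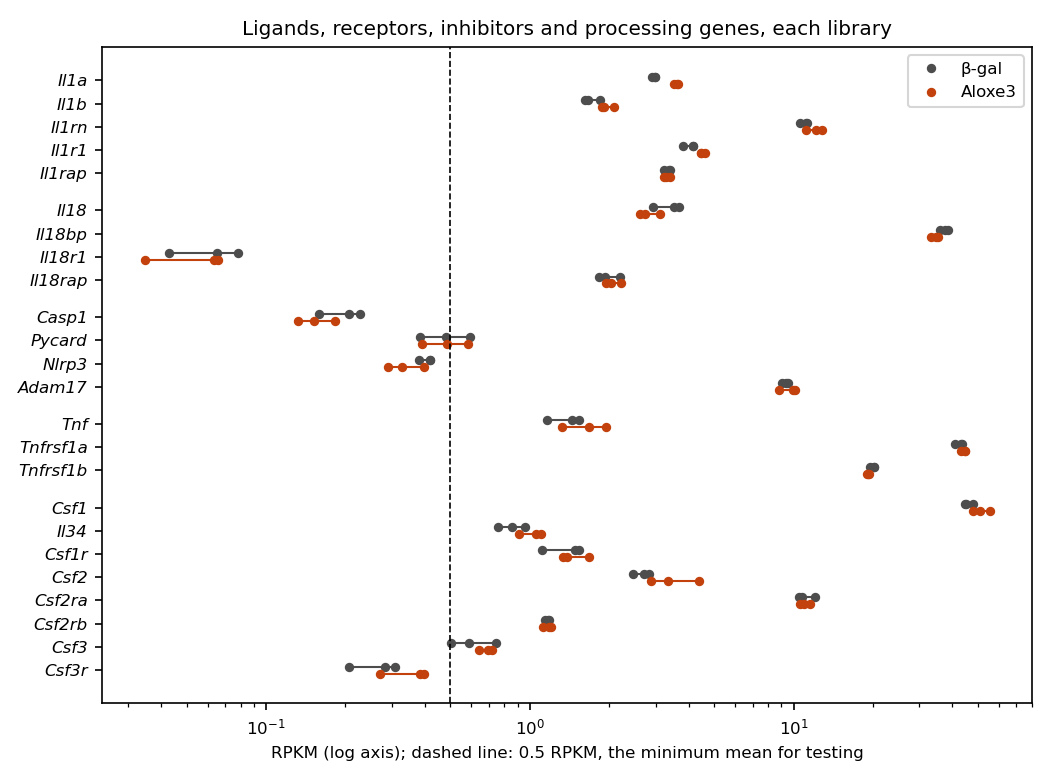
RPKM (log axis) of ligands, receptors, inhibitors and processing genes in each β-gal (grey) and Aloxe3 (orange) library, with a line from the lowest to the highest of a group. Il18bp lies about an order of magnitude to the right of Il18, and Il18r1, Casp1 and Nlrp3 lie left of the dashed line at 0.5 RPKM, below which genes were not tested.

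The other genes of the 3 pathways were followed in lists that left the members out. Of 62 tested genes in these lists, 0 passed the threshold with limma and 0 with voom, where 0.394% and 1.37% of all tested genes did. Before adjustment, 7 had p under 0.05, against 12.7% of all tested genes, and these were 3 with higher values (7.31% of all) and 4 with lower ones (5.42%). The groups did not overlap for 14 of the 62, 8 higher and 6 lower, against 19.9% of all tested genes (11.2% and 8.71%). These shares are near those over all genes. In the IL-1 list, 32 of 36 listed genes matched the table and 17 were tested, 7 with a log2 fold change above 0 and 10 below, with a median of -0.0096. Myd88, the adaptor of Il1r1, had the smallest p of that list, at 22.3 ± 0.84 RPKM in controls against 19.9 ± 1.06 RPKM with Aloxe3 (SD, n = 3 each, log2 fold change -0.15, SE 0.049, adjusted p = 0.289, limma). Il18bp, a secreted inhibitor that binds IL-18, was the most abundant gene of the list at 37.3 ± 1.35 and 34.5 ± 1.13 RPKM (log2 fold change -0.11, adjusted p = 0.336). Tollip, which restrains Irak1, had a log2 fold change of -0.09 (adjusted p = 0.509).

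Not every part of the IL-1 and IL-18 system was seen. The level of Il18bp was 10.5 to 12.2 times that of Il18 with β-gal and 11.1 to 13.5 times with Aloxe3. Of the receptor for IL-18, Il18rap was at 1.84 to 2.21 RPKM and the ligand-binding chain Il18r1 at 0.035 to 0.078 RPKM. Casp1, which cuts the precursors of IL-1β and IL-18, was at 0.132 to 0.228 RPKM, its sensor Nlrp3 at 0.29 to 0.42 RPKM and the adaptor Pycard at 0.385 to 0.596 RPKM, all with a mean under the testing minimum, while Gsdmd, whose product forms the pores for release, was at 20.3 to 23.4 RPKM. The decoy receptor Il1r2 was listed at 0 in all β-gal libraries and at 0.029 RPKM or less with Aloxe3. Il1f5, Il1f8 and Il1f10 were at 0 in every library.

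Of the 34 genes of the TNF list, 31 were tested, 15 with a log2 fold change above 0 and 16 below, with a median of -0.00042. Casp8, which initiates cell death below Tnfrsf1a, was at 10.4 ± 0.17 RPKM in controls against 11.4 ± 0.45 RPKM with Aloxe3 (SD, n = 3 each, log2 fold change 0.13, adjusted p = 0.291, limma). Birc3, a ubiquitin ligase of the receptor complex, had a log2 fold change of -0.09 (adjusted p = 0.338) and Traf1, an adaptor, of 0.13 (adjusted p = 0.367). Ltbr, the lymphotoxin β receptor, was the most abundant at 60.5 to 68.5 RPKM. Lta, another ligand of the TNF receptors, was listed at 0 in the β-gal libraries and reached at most 0.095 RPKM with Aloxe3.

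In the CSF list, 14 of 19 genes were tested, 7 above and 7 below 0, with a median of -0.0016. Cish, an inhibitor induced by cytokines through Stat5, was at 4.29 ± 0.12 RPKM in controls against 3.7 ± 0.034 RPKM with Aloxe3 (SD, n = 3 each, log2 fold change -0.17, adjusted p = 0.214, limma), the smallest p of the 3 lists. Jak2 and Stat5b, which carry the signal of the CSF2 receptor, had log2 fold changes of 0.11 (adjusted p = 0.392) and 0.08 (adjusted p = 0.421). Il3ra was the most abundant gene of the list at 25.3 to 28.7 RPKM. Csf1r, the receptor of CSF1 and a macrophage marker, was at 1.11 to 1.68 RPKM, and the level of Csf1 was 30.3 to 40.4 times that of Csf1r with β-gal and 33 to 37 times with Aloxe3. The CSF2 receptor chains Csf2ra and Csf2rb were at 10.4 to 12.1 and 1.12 to 1.21 RPKM. The level of Csf2ra per Csf2 was 4.01 to 4.28 with β-gal and 2.62 to 3.67 with Aloxe3. Csf2ra itself differed little (log2 fold change -0.0096), so this ratio restates the difference in Csf2 and is no second result.

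Acute phase and inflammatory genes, most of them known to be induced by IL-1 in hepatocytes, formed a last list of 18, of which 16 were tested and 14 had a log2 fold change above 0 (median 0.078), where 52.4% of all tested genes did. Hp, which encodes haptoglobin, was the only gene of this list past the threshold (0.394% of all tested genes passed), and it rose from 825 ± 25.6 to 1175 ± 35.3 RPKM (SD, n = 3 each, log2 difference 0.51, SE 0.045, adjusted p = 0.0078, limma). Without Aloxe3 replicate 7, 0 genes of the list passed. Before adjustment, 4 genes of the list had p under 0.05, all with higher values in Aloxe3-overexpressing cells, against 7.31% of all tested genes. Beside Hp these were Saa4, the constitutive serum amyloid A gene, which is not known as an IL-1 target (6.69 ± 1.08 and 10.7 ± 0.61 RPKM, adjusted p = 0.0657), complement C3 (558 ± 10.6 and 627 ± 11.1 RPKM, adjusted p = 0.168) and Lbp, the lipopolysaccharide binding protein (7.58 ± 0.93 and 9.11 ± 0.77 RPKM, adjusted p = 0.334; limma, SD, n = 3 each). Hp was also the gene whose pattern over the 6 libraries was most like that of Il1a (Pearson r = 0.999 on log2(RPKM + 1)), followed by Cdo1 (r = 0.995), for cysteine dioxygenase, and Chaf1b (r = 0.995), a chromatin assembly subunit. These 6 points share the 2 groups and the library scaling, and 342 tested genes had r above 0.9, so the likeness is a description. Saa1, Saa3 and Lcn2, classical IL-1 targets, had log2 fold changes of 0.014, 0.049 and 0.028. Other genes of the list lay farther from 0 without passing the threshold, with 0.19 for Cxcl1 and Hamp, 0.155 for Orm2 and -0.105 for Saa2.

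**Figure D5:**
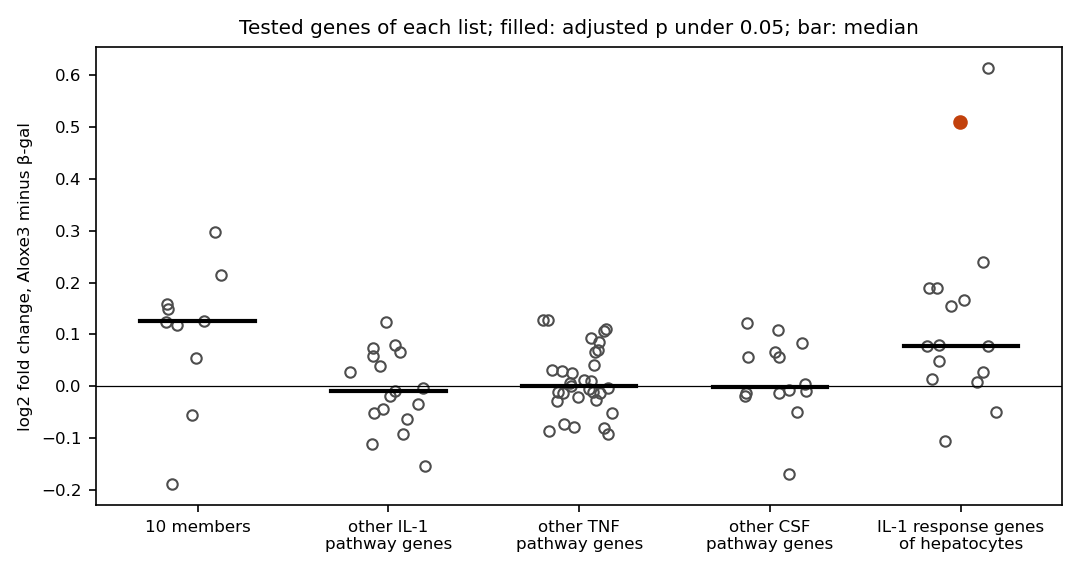
Log2 fold change on the log2(RPKM + 1) scale, Aloxe3 minus β-gal (y axis), of the tested genes in each list, 1 circle a gene, with the median as a bar. The filled circle, Hp, is the only gene with an adjusted p under 0.05, the median bar of the members is at 0.13, and those of the 3 pathway lists are near 0.

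Some members overlap other annotated genes, and the sources do not state whether the libraries keep the strand. Gm14023 is antisense to Il1a, Il1bos to Il1b and Gm12223 to Csf2, and Il18 overlaps Bco2 and Tex12 on the other strand. The reads counted for the antisense genes were few, with at most 0.297 RPKM for Gm12223 and 0.148 RPKM for Gm14023, and Bco2 was at 0.901 to 1.23 RPKM. Gm12223 was far below the testing minimum and was not tested, with a mean of 0.0196 RPKM in controls and 0.144 RPKM with Aloxe3. Its groups did not overlap, while those of the other 4 overlapping genes did. The authors kept only reads that fell on 1 gene, and whether strand was used to decide this is not stated, so the share of such reads lost or assigned to the partner is not known.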

How the data were processed

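The members and gene lists were chosen with earlier results of these data known. The authors aligned single reads of 50 bases with STAR (2.0.4b) to GRCm38.p2, took unambiguous reads with a unique alignment as gene counts in Subread featureCounts (1.4.5), per the labels and the paper, and deposited RPKM values. How counts became RPKM is not given in the sources used here. Library sizes and reads were recovered from the steps of the values (tolerance 0.01 reads) with GENCODE M21 exon lengths for 6 members, and for Il1rn, Il1r1, Il18 and Csf1 with the smallest length giving whole reads, so that reads of these 4 are a minimum. Promoter motifs were searched in the first 250 bases of each RefSeq window, ahead of the start. Derived reads made up at least 99.9% of each library size. Symbols and coordinates come from GENCODE M21 (40340 identifiers matched).

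Testing covered genes whose mean reached 0.5 RPKM, as log2(RPKM + 1) with limma 3.58.1 in R 4.3.3 (eBayes with trend, Benjamini-Hochberg, 0.05). Such fold changes understate those of low genes. Groups came from the sample titles. In simulated reads (12683 genes) 49 of 50 genes changed 2-fold, 40 of 50 changed 1.5-fold and 13 of 50 changed 1.25-fold were recovered, and 14 of 12483 unchanged genes were called. The simulation gave every gene the same small dispersion, held no outlying library and changed only genes above a minimum level. It therefore checks the code and does not measure the sensitivity for the members. Named genes were the members, per pathway list the genes past the threshold or the 3 with the smallest p and the most abundant one, per marker list the 2 highest and those at 0, and the 3 most like the member with the smallest p. Others were chosen after their values were seen: Il1rap, Il18r1, Il18rap, Casp1, Nlrp3, Pycard, Gsdmd, Il1r2, Il1f5, Il1f8, Il1f10, Lta, Csf1r, Csf2ra, Csf2rb, Saa1, Saa2, Saa3, Saa4, C3, Lbp, Lcn2, Cxcl1, Hamp, Orm2, the overlapping genes and the markers Ttr, Serpina1a, Apoa1, Asgr1, Cps1, Tat, Clec4f, Timd4, Vsig4, Marco, Cd5l, Krt19, Krt7, Epcam and Ptprc. Figures were drawn with matplotlib 3.10.9.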

Additional observations from a re-analysis of the deposited data

How the results depend on the processing

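The fold changes of the 10 members kept their direction and stayed short of the threshold in all 124 values from 13 alternatives: a pseudocount of 0.1, no filter, a filter at 5 RPKM (which leaves only 4 members), rescaling to the same median, quantile normalization, eBayes without trend, voom on derived reads and each of the 6 libraries left out. Adjusted p ranged from 0.0921 to 0.86. The count over all genes, 50, was 7 without a filter, 174 with voom and 6 to 19 with a library left out. Of the listed acute phase and inflammatory genes, which include Saa4, 2 passed with the filter at 5 RPKM, 0 without a filter and 3 with voom, and 0 to 1 with a library left out (0 without Aloxe3 replicate 7). The median of the IL-1 pathway list was -0.045 with the filter at 5 RPKM, and with a library left out it ranged from -0.0397 to 0.012. That of the CSF pathway list ranged from -0.016 to 0.036. For these counts and medians the cause was not tested. No paired analysis was possible because the groups share no replicate number. Il1b was 0.08 with quantile normalization and 0.19 with voom, and Tnf 0.23 with a pseudocount of 0.1 and with voom. Depth leaves a counting error of 9.88% of the mean for Il1b and 11.8% for Tnf and Csf2, and whether depth or the spread between libraries limits their calls was not tested.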
